A study of Mus musculus with 24 samples.

Results

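The transforming growth factor β (TGF-β) and bone morphogenetic protein (BMP) pathway was followed through 9 genes taken by their symbols from the 12010 genes of the expression table, and all 9 were measured. They were the ligand gene Tgfb1, the receptor genes Tgfbr1 and Tgfbr2, the signal transducer gene Smad3, the inhibitor genes Smad7 and Skil, and the target genes Id1, Id2 and Id3. Messenger RNA was measured in B16-F10 mouse melanoma cells carrying a luc2 luciferase reporter, which the controls carry too. The 8 lines were the parental cells, the single knockouts (MITF KO, TFE3 KO and TFEB KO), the double knockouts (TFEB/TFE3 DKO, MITF/TFE3 DKO and MITF/TFEB DKO) and the TKO, which lacks all 3 factors, with 3 libraries of each. MITF, TFEB and TFE3 are related basic helix-loop-helix leucine zipper factors that bind the same sequences, and the lines ask what each does alone or in the absence of the others. All lines, controls included, were kept in serum-containing medium, and the labels name no treatment with TGF-β or BMP. Each KO line was grown from a single edited clone, so a feature of the clone and an effect of the KO cannot be told apart. Per the paper, TFE3 and TFEB were knocked out in parental cells and in the existing MITF KO cells. The lines without MITF thus share a source, and a trait seen in all of them is not a repeated observation of MITF loss. The sources used here do not say whether the libraries of a line came from separate cultures, and p-values therefore measure the spread between these libraries, which may be technical.

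TGF-β ligands bind the type II receptor TGFBR2, which recruits and phosphorylates the type I receptor TGFBR1, and the activated type I receptor phosphorylates SMAD2 and SMAD3. These enter the nucleus with SMAD4 and switch genes on or off. BMPs signal through the related SMAD1, SMAD5 and SMAD9, and the Id genes are classical direct targets of that branch. SMAD7 blocks the receptors and SKIL (SnoN) blocks SMADs on DNA, and both genes are themselves induced by the pathway, which closes a feedback loop. ID proteins have a helix-loop-helix but no DNA-binding region, so they hold other helix-loop-helix proteins off DNA. In melanoma, TGF-β signalling is known for its ties to invasion and to low MITF.

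Levels are CPM, read counts scaled to library size by the authors, and a log2 fold change is a difference of mean log2(CPM + 1), which makes the change of a scarce gene look smaller than it is. The call used throughout asks that a gene differ by a fold of at least 2 with an unadjusted p under 0.05, and adjusted p-values run over all 12010 genes. Each library held between 18300902 and 26667877 reads on genes. Tfeb was at 2.06 to 5.27 CPM in the lines without TFEB and at 7.87 to 22.7 CPM in the others, and Tfe3 was at 8.01 to 21.8 CPM without TFE3 and 31.1 to 62.5 CPM otherwise. Mitf was at 1358 to 1470 CPM in MITF KO cells against 763 to 797 CPM in parental cells, and reads from the 3′ end need not show a frameshift. The 7 melanocytic markers summed to between 15830 and 40320 CPM in every library. They summed to 26130 to 26950 CPM in parental cells, to 38410 to 40320 CPM in MITF KO cells, to 17180 to 19640 CPM in MITF/TFEB DKO cells and to 15830 to 16860 CPM in TKO cells. The other lines lay between 26230 and 32710 CPM. Of markers of other cell types, the epithelial Krt14 was at 0 in parental cells, at 6.51 to 8.98 CPM in MITF/TFEB DKO cells and at 16.1 to 19.3 CPM in TKO cells. Pecam1, the measured endothelial marker (1 of 3), was at 7.73 to 8.59 CPM in parental cells. It was at most 0.627 CPM in MITF KO, MITF/TFEB DKO and TKO cells. Its level was 1.097 to 2.026 CPM in MITF/TFE3 DKO cells and 1.818 to 2.793 CPM in TFE3 KO cells. It was above the parental range in TFEB KO cells (10.88 to 17.63 CPM) and TFEB/TFE3 DKO cells (25.48 to 31.57 CPM). Pdgfrb, Col1a1 and Col1a2, the measured fibroblast markers (3 of 6), summed to 11.4 to 15.0 CPM in parental cells, to 35.2 to 44.9 CPM in MITF KO cells, to 40.5 to 53.9 CPM in MITF/TFEB DKO cells and to at most 27.1 CPM in every other line. Cd68, the measured immune marker (1 of 5), reached 1.74 CPM at most. The part of other cell types in the results was not tested.

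**Figure D1:**
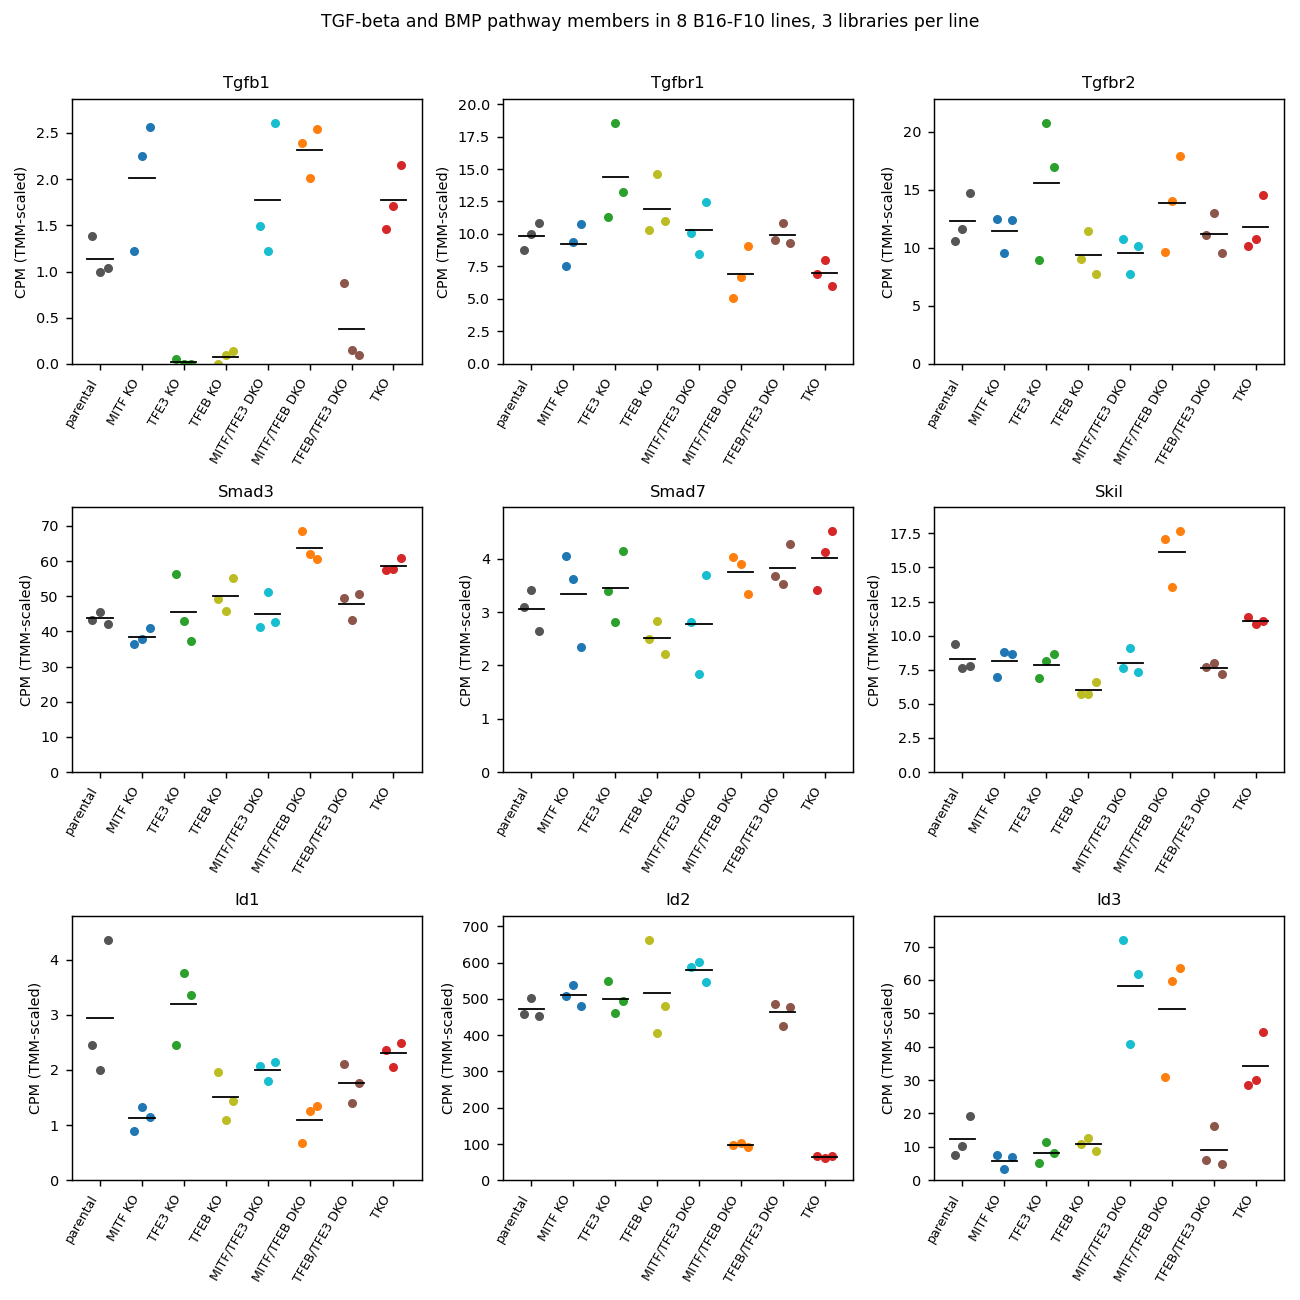
Level of each of the 9 members (y axis, CPM scaled by the authors, starting at 0) in the 8 lines (x axis), with 1 point per library and a bar at the mean of 3. Id2 sat at 60.9 to 103 CPM in MITF/TFEB DKO and TKO cells and at 406.5 CPM or more in every other library, Id3 was highest in the lines that lack MITF and a further factor, and Tgfb1 was near 0 in TFE3 KO and TFEB KO cells.

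Against parental cells, 2 of the 9 members passed the call in MITF/TFEB DKO cells (13.7% of all genes) and 2 in TKO cells (14.7% of all genes), Id3 as the gene that rose and Id2 as the gene that fell. In MITF/TFE3 DKO cells, Id3 rose and no other member was called (5.87% of all genes). In TFE3 KO cells, Tgfb1 fell and no other member was called (1.71% of all genes). By limma, 0 members were called in MITF KO cells (6.28% of all genes), and edgeR called 2 (10.6% of all genes). In TFEB KO cells limma called 0 (0.783% of all genes) and edgeR 1 (2.57% of all genes). In TFEB/TFE3 DKO cells limma called 0 (0.958% of all genes) and edgeR 1 (2.99% of all genes). An unadjusted p under 0.05 was found for 3, 3 and 2 members in these lines, in the same order. The share of all genes at that p was not counted, so nothing is read from these numbers. With 9 members, 1 called gene is 11.1% of them, and the results below rest on single genes. At an adjusted p under 0.05 and any fold, 7 of 9 members differed in MITF/TFEB DKO cells (56.1% of all genes), with Tgfb1, Smad3, Skil and Id3 higher and Tgfbr1, Id1 and Id2 lower. In TKO cells 5 of 9 did (56.2% of all genes), with Smad3, Skil and Id3 higher and Tgfbr1 and Id2 lower. The members had a median log2 change of 0.23 and 0.31 in these lines, beside 0.01 for all genes. As members went both ways, this median was the value of 1 gene, Smad7, in both lines and does not show a shared shift. All 7 comparisons share the same 3 parental libraries.

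**Figure D2:**
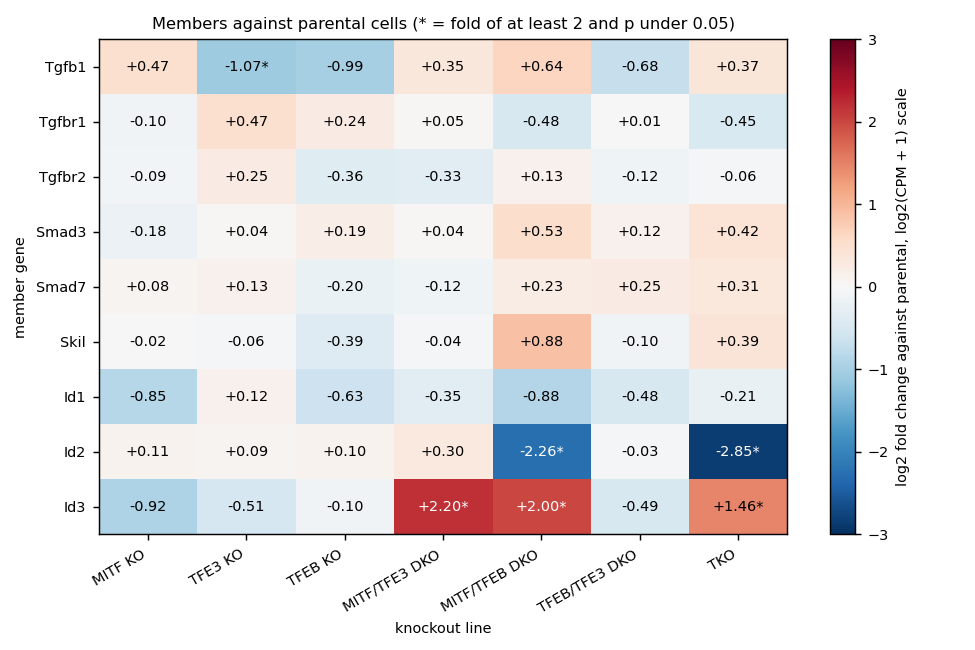
Log2 fold change (colour and printed value, on the log2(CPM + 1) scale) of the 9 members (rows) in the 7 KO lines (columns) against parental cells, with an asterisk where a gene passed the call. Id2 (-2.26 and -2.85) and Id3 (2.20, 1.995 and 1.46) carry most of the asterisks, and Tgfb1 in TFE3 KO cells (-1.07) carries the other.

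Id2 was the most abundant member and fell in both lines that lack MITF and TFEB together. Id2 encodes an ID protein that holds back differentiation in many cell types. It was at 459.5, 502 and 452 CPM in parental cells, 509.5, 539.5 and 481 CPM in MITF KO cells and 664, 406.5 and 480.1 CPM in TFEB KO cells. In MITF/TFEB DKO cells it was at 98.4, 103 and 91.2 CPM, and in TKO cells at 66.4, 60.9 and 66.0 CPM. The 6 libraries of those lines did not overlap with any of the other 18, which ran from 406.5 to 664 CPM. The log2 fold change against parental cells was -2.26 (SE 0.117, adjusted p = 1.7e-13) in MITF/TFEB DKO cells and -2.85 (SE 0.117, adjusted p = 1.5e-15) in TKO cells, or 4.79-fold and 7.21-fold lower on the log2(CPM + 1) scale. In bulk RNA, less of a transcript per cell and fewer cells that express it cannot be told apart.

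Id2 fell where MITF and TFEB were both missing and in neither single KO. The log2 difference of Id2 on loss of TFEB was 0.10 in cells with MITF (adjusted p = 0.741) and -2.37 in cells without MITF (SE 0.117, adjusted p = 5.5e-14), and the difference of -2.48 between the effects passed its own test (SE 0.165, adjusted p = 2.9e-11), as did 12.1% of all genes. On loss of MITF it was 0.11 in cells with both other factors (adjusted p = 0.47) and -2.36 in cells without TFEB (adjusted p = 6.8e-14). On loss of TFE3 in cells without MITF it was 0.18 (adjusted p = 0.222), and the MITF/TFE3 DKO, at 587, 603 and 547 CPM, was the line with the highest mean (log2 change 0.30 against parental cells, adjusted p = 0.045, under a fold of 2). In cells without MITF and TFEB, Id2 fell by a further 0.59 on loss of TFE3 (adjusted p = 0.0011, under a fold of 2), and the TKO libraries lay below all 3 of the MITF/TFEB DKO. The effect of TFEB loss in cells without MITF differed by -0.77 when TFE3 was missing too (adjusted p = 0.0012), under the fold of 2. The median change of the 100 genes nearest to Id2 on chromosome 12 was -0.38 and -0.40 in MITF/TFEB DKO and TKO cells.

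Id3 rose in every line that lacks MITF together with a further factor. It encodes another ID protein, a common readout of BMP signalling. It was at 7.51, 10.4 and 19.4 CPM in parental cells and 7.53, 3.29 and 6.87 CPM in MITF KO cells. It was at 72.0, 40.9 and 61.8 CPM in MITF/TFE3 DKO cells, at 30.8, 59.8 and 63.6 CPM in MITF/TFEB DKO cells and at 28.4, 29.9 and 44.3 CPM in TKO cells. Those 9 libraries all lay above the other 15, of which the highest was a parental library at 19.4 CPM, while the 3 lines overlapped with each other. Against parental cells the log2 fold change was 2.20 (SE 0.380, adjusted p = 7.4e-05), 1.995 (SE 0.380, adjusted p = 0.00011) and 1.46 (SE 0.380, adjusted p = 0.0023), in the same order.

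For Id3, the loss of either partner came with a rise once MITF was missing. Loss of TFEB in cells without MITF raised Id3 by 2.92 (adjusted p = 1.2e-06), where Id2 and Id3 were the 2 members called (10.9% of all genes), and loss of TFE3 raised it by 3.13 (adjusted p = 1.3e-06), where it was the 1 member called (5.06% of all genes). In cells with MITF the same losses gave -0.10 (adjusted p = 0.942) and -0.51 (adjusted p = 0.419). The differences between the effects with and without MITF, 3.02 for TFEB (SE 0.538, adjusted p = 0.00012) and 3.63 for TFE3 (SE 0.538, adjusted p = 2.5e-05), passed their test, which 12.1% and 6.09% of all genes passed. The 2 rises did not add up, as the TKO exceeded the MITF KO by 2.39 (adjusted p = 1.9e-05, 10.9% of all genes called). The effect of TFEB loss in cells without MITF differed by -3.66 when TFE3 was missing too (SE 0.538, adjusted p = 1.8e-05), and 7.99% of all genes passed this test. Id3 had a log2 change of -0.92 in MITF KO cells (adjusted p = 0.059), which edgeR on reads put at -1.09 and called. The TKO and the MITF/TFEB DKO differed by -0.53 (adjusted p = 0.451) and the TKO and the MITF/TFE3 DKO by -0.74 (adjusted p = 0.109), with overlapping libraries in both pairs. Id3 was the member with the widest spread within lines (SD 0.539 on the log2 scale), against 0.153 for Id2. The 100 genes nearest to Id3 on chromosome 4 had a median change of -0.02, 0.12 and 0.12 in the 3 lines, in the order of their values above. The annotation places a further gene, Gm57159, across the 3′ end of Id3 on the opposite strand, and whether the authors' counting used the strand is not stated.

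The promoters of Id2 and Id3 are shown because these genes carry the changes of the double KOs and the TKO. In the mm39 assembly, Id2 (ENSMUSG00000020644) lies on the minus strand at chr12:25143798-25147282 and Id3 (ENSMUSG00000007872) on the plus strand at chr4:135870808-135873066. RefSeq sequences of 250 bases before to 50 bases after the start site (build GRCm38.p6) were matched for 6 of the 9 members, namely Tgfb1, Tgfbr1, Tgfbr2, Smad3, Id2 and Id3. Capitals mark every match, on either strand, to CACGTG and CATGTG, boxes bound by the MITF family, to CAGAC and GTCTAGAC, elements bound by SMAD3 and SMAD4, and to GGCGCC, an element bound by SMADs in BMP targets, each read 5′ to 3′ along the gene. CAGAC shares letters with GTCTAGAC but does not lie within it.
Id2, chr12:25096043-25096342, minus strand: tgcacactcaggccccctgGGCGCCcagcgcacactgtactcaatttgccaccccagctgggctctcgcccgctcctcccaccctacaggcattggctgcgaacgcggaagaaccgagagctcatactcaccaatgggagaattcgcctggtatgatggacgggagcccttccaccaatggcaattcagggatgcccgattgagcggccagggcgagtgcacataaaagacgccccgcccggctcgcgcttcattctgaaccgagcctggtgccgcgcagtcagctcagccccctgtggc
Id3, chr4:136143572-136143871, plus strand: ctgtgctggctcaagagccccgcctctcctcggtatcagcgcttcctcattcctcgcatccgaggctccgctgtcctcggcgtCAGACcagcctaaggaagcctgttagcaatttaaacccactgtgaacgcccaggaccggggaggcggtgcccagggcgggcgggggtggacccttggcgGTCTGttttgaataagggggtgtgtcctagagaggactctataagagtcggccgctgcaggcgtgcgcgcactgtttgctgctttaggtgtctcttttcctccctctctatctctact
Id2 held 1 GGCGCC, its first base 231 bases before the start site, and Id3 held CAGAC at 2 places, 167 and 68 bases before the start. Of 32851 mouse promoters of the same length, 11.9% held GGCGCC and 49.6% held CAGAC, so either match is common. No promoter of the 6 members held CACGTG (7.15% of all promoters), CATGTG (14.2%) or GTCTAGAC (0.213%). A match describes letters, and none of these data show binding.

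Id1, the third ID gene and a BMP target in most cells, was scarce, with 17 to 97 reads per library. It was at 2.46, 2.001 and 4.36 CPM in parental cells, at 0.895, 1.33 and 1.14 CPM in MITF KO cells and at 0.667, 1.26 and 1.35 CPM in MITF/TFEB DKO cells, and neither of those lines overlapped with the parental cells. The log2 fold change was -0.85 (SE 0.196, adjusted p = 0.0014) and -0.88 (SE 0.196, adjusted p = 0.00054), under the fold of 2 on the log2(CPM + 1) scale. The edgeR fit on reads, which adds no pseudocount of 1, gave -1.38 (adjusted p = 0.002) and -1.42 (adjusted p = 0.00075) and called both. Id1 also lay below every parental library in TFEB KO cells, which have MITF, at 1.97, 1.097 and 1.434 CPM. The log2 fold change there was -0.63 (adjusted p = 0.071), and neither fit called it. In TKO cells Id1 was at 2.37, 2.05 and 2.49 CPM, inside the parental range, and exceeded the MITF/TFEB DKO by 0.67 (adjusted p = 0.024).

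Tgfb1, the gene of the TGF-β1 ligand, was the member with the fewest reads, and was nearly lost in the single KOs of TFE3 and TFEB. In parental cells it had 32, 22 and 23 reads, or 1 to 1.38 CPM. In TFE3 KO cells 1 read was found in 1 library and 0 in the other two, and in TFEB KO cells the libraries held 0, 2 and 3 reads, so neither line overlapped with the parental cells. By summed reads, the TFE3 KO held 0.0136 of the parental level (exact 95% interval 0.000339 to 0.0778) and the TFEB KO 0.0703 (0.0222 to 0.171), intervals that cover counting error only. The log2 fold change was -1.07 in TFE3 KO cells (SE 0.206, adjusted p = 0.0011) and -0.99 in TFEB KO cells (SE 0.206, adjusted p = 0.0043), the latter just under the call, while edgeR called both. Without parental replicate 1 the value in TFE3 KO cells was -0.99 and the call was lost.

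Wherever MITF was missing, no library had Tgfb1 below the parental range. In TFEB/TFE3 DKO cells the libraries were at 0.878, 0.145 and 0.0953 CPM, all below the parental libraries and spread more widely than in the single KOs (log2 fold change -0.68, adjusted p = 0.04). Against TFE3 KO cells this line differed by 0.39 (adjusted p = 0.16), and by 4.23 in the edgeR fit on reads (adjusted p = 0.0067), where the pseudocount of 1 does not enter. In the 4 lines without MITF the level ran from 1.22 to 2.61 CPM, with a log2 change of 0.64 against parental cells in MITF/TFEB DKO cells (adjusted p = 0.012, under the fold of 2). Loss of MITF raised Tgfb1 by 1.42 in cells without TFE3 (adjusted p = 6.5e-06, 8% of all genes called), by 1.62 in cells without TFEB (adjusted p = 5.2e-07, 14.7%) and by 1.05 in cells without both (adjusted p = 0.00014, 15.9%). The last value was 0.94, 0.91 and 0.96, under the call, without TFEB/TFE3 DKO replicate 2, TFEB/TFE3 DKO replicate 3 or TKO replicate 3. In cells with both the difference was 0.47 (adjusted p = 0.076). The effect of TFEB loss was 1.15 higher without MITF than with it (SE 0.291, adjusted p = 0.0035), but 0.95 without MITF KO replicate 1 and 0.34 with a pseudocount of 5, both under the threshold, and 3.95 in the edgeR fit (adjusted p = 0.0014). The like difference for TFE3 loss was 0.95 (adjusted p = 0.023), under the fold of 2 and between 1.01 and 1.09 when MITF KO replicate 2 or 3 or MITF/TFE3 DKO replicate 1 or 2 was left out, and edgeR put it at 5.58 (adjusted p = 0.00092). The 100 genes nearest to Tgfb1 on chromosome 7 had a median change of -0.04 where TFE3 was lost and 0.01 where TFEB was lost.

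**Figure D3:**
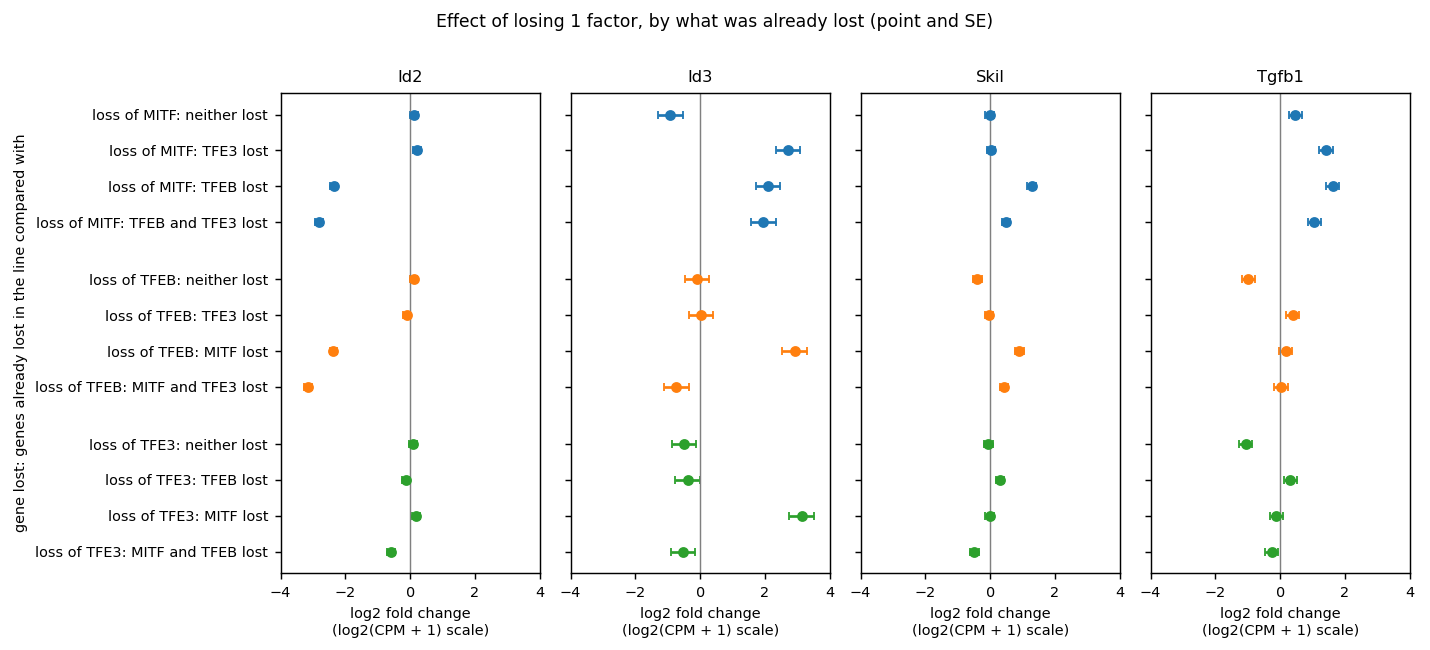
Log2 fold change (x axis, log2(CPM + 1) scale, point and SE from the fit over 24 libraries) of Id2, Id3, Skil and Tgfb1 on loss of MITF, TFEB or TFE3, by which factors the line compared with had already lost (y axis). Loss of TFEB or of MITF changed Id2 by -2.37 and -2.36 where the other was already missing and TFE3 was present, and loss of TFEB or TFE3 changed Id3 by 2.92 and 3.13 where MITF alone was missing.

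Skil, which encodes the SMAD inhibitor SnoN, was highest in MITF/TFEB DKO cells. It was at 9.41, 7.59 and 7.78 CPM in parental cells, at 17.1, 13.6 and 17.6 CPM in MITF/TFEB DKO cells and at 11.4, 10.9 and 11.1 CPM in TKO cells. Both lines lay above all other libraries and apart from each other. The log2 fold change was 0.88 in MITF/TFEB DKO cells (SE 0.130, adjusted p = 4.9e-06) and 0.39 in TKO cells (adjusted p = 0.014), neither a fold of 2, and the TKO differed from the MITF/TFEB DKO by -0.49 (adjusted p = 0.013). Skil was lowest in TFEB KO cells, at 5.75, 5.76 and 6.57 CPM, below every parental library (log2 fold change -0.39, adjusted p = 0.091). Against the TFEB KO the MITF/TFEB DKO was 1.28 higher (adjusted p = 1.8e-08), a call, and the effect of TFEB loss was 1.29 higher without MITF than with it (SE 0.184, adjusted p = 8e-06). The 100 genes nearest to Skil on chromosome 3 had a median change of 0.24 and 0.38 in MITF/TFEB DKO and TKO cells.

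Smad3, the transducer of the TGF-β branch, was higher in the same 2 lines as Skil, by less than a fold of 2. It was at 43.4, 45.6 and 42.2 CPM in parental cells, at 68.4, 62.0 and 60.7 CPM in MITF/TFEB DKO cells and at 57.6, 57.8 and 60.9 CPM in TKO cells, and these 6 libraries lay above all others. The log2 fold change was 0.53 (SE 0.117, adjusted p = 0.00052) and 0.42 (adjusted p = 0.0043), under the fold of 2. The MITF KO, at 36.4, 37.9 and 40.9 CPM, lay below the parental libraries without a difference past the test (-0.18, adjusted p = 0.226). Against the MITF KO, Smad3 was 0.72 higher in MITF/TFEB DKO cells (adjusted p = 2.5e-05) and 0.60 higher in TKO cells (adjusted p = 0.00019). The 100 genes nearest to Smad3 on chromosome 9 had medians of the opposite sign, -0.21 and -0.22.

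Neither the receptor genes nor Smad7 passed the call in any line against parental cells. Tgfbr1, the type I receptor gene, ran from 5.10 to 18.5 CPM over all libraries. It was highest in TFE3 KO cells (11.3 to 18.5 CPM, log2 fold change 0.47, adjusted p = 0.115) and lowest in MITF/TFEB DKO cells (5.10 to 9.08 CPM) and the TKO (5.98 to 7.99 CPM) beside 8.76 to 10.9 CPM in parental cells. Its log2 fold change there was -0.48 in MITF/TFEB DKO cells (adjusted p = 0.039) and -0.45 in TKO cells (adjusted p = 0.05, under the threshold before rounding), where the 100 genes nearest to it had medians of -0.35 and -0.29. Tgfbr2, the type II receptor gene, ran from 7.73 to 20.7 CPM, and its log2 fold change against parental cells lay between -0.36 and 0.25 with no adjusted p under 0.05. Smad7 ran from 1.84 to 4.52 CPM (39 to 105 reads), with log2 fold changes from -0.20 to 0.31 and no adjusted p under 0.05. For these 3 genes, lines next to each other in the order of means overlapped throughout. The SEs of 0.193, 0.239 and 0.179 set what could be seen, and a p that misses the threshold does not show equal levels.

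The wider pathway was read from a list of 120 genes, of which 71 were measured and the other 49 were not analysed here. Against parental cells 21 of the 71 (29.6%) were called in MITF/TFEB DKO cells, 19 higher and 2 lower, beside 8.78% and 4.94% of all genes. The same number was called in TKO cells, 17 higher and 4 lower, beside 8.28% and 6.41% of all genes. In MITF KO cells 8 were higher and 1 lower (12.7%, beside 6.28% of all genes), in MITF/TFE3 DKO cells 5 were higher and 1 lower (8.45%, beside 5.87%), and in TFE3 KO cells 1 was called each way (2.82%, beside 1.71%). In TFEB KO cells and in TFEB/TFE3 DKO cells limma called 0, beside 0.783% and 0.958% of all genes. There edgeR called 1 and 2, beside 2.57% and 2.99% of all genes. An unadjusted p under 0.05 was found for 14 and 15 of the 71. The share of all genes at that p was not counted, so nothing is read from these numbers. Over the 71 genes the median change was 0.53 in MITF/TFEB DKO cells and 0.33 in TKO cells, beside 0.01 for all genes.

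**Figure D4:**
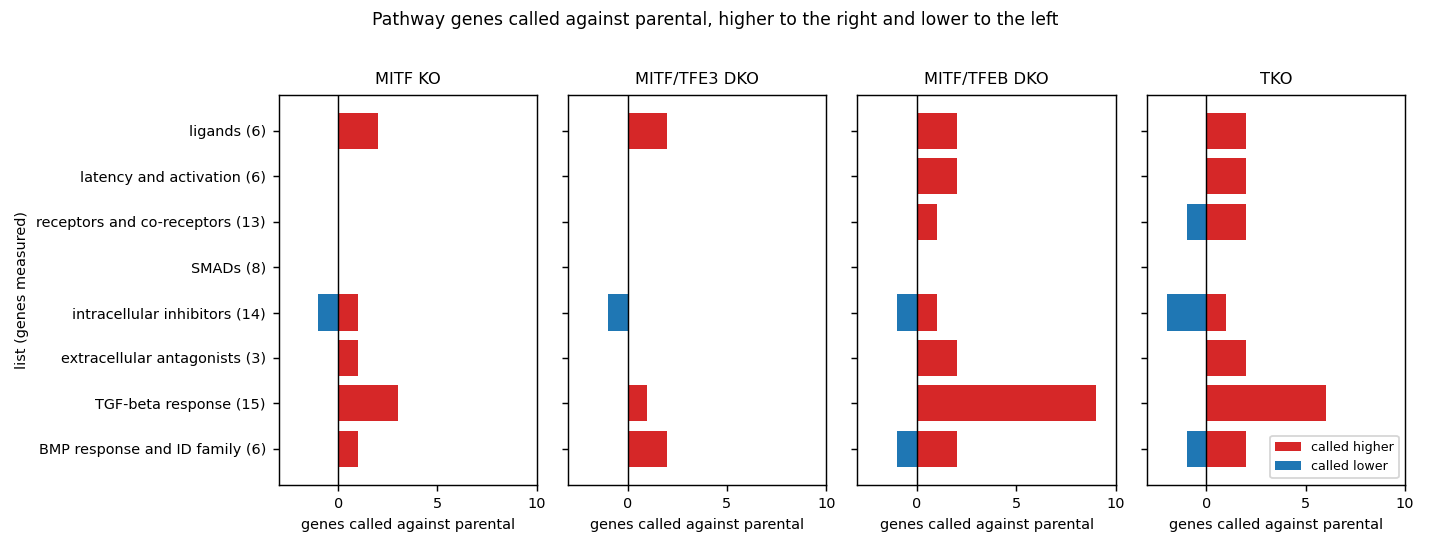
Number of genes called against parental cells (x axis, higher to the right of 0 and lower to the left) in each of 8 lists of the pathway (y axis, with the number measured), for the 4 lines without MITF. The list of TGF-β response genes had 9 of 15 called higher in MITF/TFEB DKO cells (8.78% of all genes) and 6 of 15 in TKO cells (8.28% of all genes). The list of SMADs had none called by limma in the 4 lines (edgeR called 1 in MITF/TFE3 DKO cells, beside 10.9% of all genes).

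Among ligands, Tgfb2 rose in MITF KO, MITF/TFEB DKO and TKO cells and Tgfb3 in every line without MITF, more so where another factor was missing too. Tgfb2 was at 17.4, 17.6 and 13.9 CPM in parental cells, 32.3, 33.3 and 34.8 CPM in MITF KO cells, 101.3, 93.0 and 84.9 CPM in MITF/TFEB DKO cells and 86.3, 78.6 and 76.5 CPM in TKO cells (log2 fold changes 2.45 and 2.24 in the latter lines, where the 100 genes nearest to Tgfb2 had medians of 0.66 and 0.73). Tgfb3 was at 10.3, 11.5 and 10.97 CPM in parental cells and rose by 1.95 in MITF/TFE3 DKO cells, 2.47 in MITF/TFEB DKO cells and 2.74 in TKO cells, where its neighbours had medians of -0.05, -0.49 and -0.46. Gdf15, a distant member of the ligand family, rose in MITF KO cells (1.98) and the MITF/TFE3 DKO (1.48) and was at 0.518 to 0.672 CPM in MITF/TFEB DKO cells beside 0.180 to 1.27 CPM in parental cells.

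Genes that free or hold back ligands were also called. Thbs1, whose product activates latent TGF-β, was at 0.225 to 1.29 CPM in parental cells and rose to 17.5, 13.4 and 15.7 CPM in MITF/TFEB DKO cells and to 4.55, 7.51 and 3.78 CPM in TKO cells. Furin, the protease that cleaves the TGF-β precursor, rose by 1.66 and 1.45. Of the 3 measured extracellular antagonists, Fstl3, which binds activin, rose by 1.11 in MITF KO cells, 1.38 in MITF/TFEB DKO cells and 1.93 in TKO cells, and Twsg1, which binds BMPs, rose by 1.03 in MITF/TFEB DKO cells and 1.47 in TKO cells.

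Of the 13 receptors and co-receptors, the BMP co-receptor genes Rgma (1.63 in MITF/TFEB DKO cells, 1.496 in TKO cells) and Rgmb (1.096 in TKO cells) rose and the activin receptor gene Acvr2b fell by 1.15 in TKO cells. Neither of the last 2 changes was particular to the TKO. Rgmb was at 19.3 to 24.05 CPM in MITF/TFEB DKO cells, beside 9.58 to 10.8 CPM in parental cells. Acvr2b was at 12.95 to 22.5 CPM in the other lines without MITF, beside 25.4 to 25.7 CPM in parental cells. Limma called 0 of the 8 SMAD-list genes in any line, beside 0.783% to 14.7% of all genes. For the same list, edgeR called 1 in MITF/TFE3 DKO cells (10.9% of all genes) and 0 in every other line. An unadjusted p under 0.05 was found for 5 of them in MITF/TFEB DKO cells and 4 in TKO cells. It was found for 2 in MITF KO cells and 2 in MITF/TFE3 DKO cells, with no share of all genes counted at that p. Inhibitors went both ways. Smurf1, a ubiquitin ligase for SMADs and receptors, fell by 1.15 in MITF/TFE3 DKO cells, 1.34 in MITF/TFEB DKO cells and 1.05 in TKO cells. Bambi, a pseudoreceptor, rose by 1.09 in TKO cells, and the corepressor gene Tgif2 fell by 1.04 in MITF KO cells. Pmepa1, a feedback inhibitor induced by TGF-β, rose from 23.1, 26.7 and 29.3 CPM in parental cells to 61.3, 67.6 and 61.1 CPM in MITF KO cells and fell to 8.34, 9.27 and 8.90 CPM in TKO cells, the highest and lowest of the 8 lines.

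The 15 measured TGF-β response genes had 9 called higher and 0 lower in MITF/TFEB DKO cells (median log2 fold change 1.32), beside 8.78% and 4.94% of all genes. In TKO cells 6 were higher and 0 lower (median 0.95), beside 8.28% and 6.41% of all genes. Fn1, which encodes fibronectin, was at 12.9 to 20.4 CPM in parental cells and rose to 190.0, 182 and 170.2 CPM and to 273, 291.5 and 295 CPM in these lines. Acta2, smooth muscle actin, had no read in parental cells and was at 205, 159 and 129 CPM in MITF/TFEB DKO cells and at 92.1, 94.0 and 70.7 CPM in TKO cells, at least 1231-fold and 641-fold higher when 3 reads per parental library are taken as the floor. Ccn2, a matricellular protein gene, rose by 1.798 (SE 0.452) and 2.85 (SE 0.452). In MITF KO cells 3 of the 15 were called higher, Acta2 (1.42 to 2.50 CPM), Col1a1 and Col1a2, beside 395 of all 12010 genes. Col1a1 was called in MITF/TFEB DKO and TKO cells too and Col1a2 in the former, and both are among the fibroblast markers given above.

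In the list of BMP response and ID genes, 6 were measured, and besides Id2 and Id3 the BMP-induced factor gene Atoh8 was called in all 4 lines without MITF. It was at 1.60, 2.55 and 2.52 CPM in parental cells and at 45.3, 42.4 and 42.7 CPM in TKO cells, with log2 changes of 2.104 in MITF KO cells, 2.98 in MITF/TFE3 DKO cells, 2.94 in MITF/TFEB DKO cells and 3.80 in TKO cells. In MITF KO cells, where Atoh8 rose, Id1 and Id3 had log2 changes of -0.85 and -0.92. Annotated genes lie on the opposite strand across the 3′ ends of Thbs1, Furin, Acvr2b, Tgif2, Fstl3, Ccn2, Fn1 and Acta2.

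**Figure D5:**
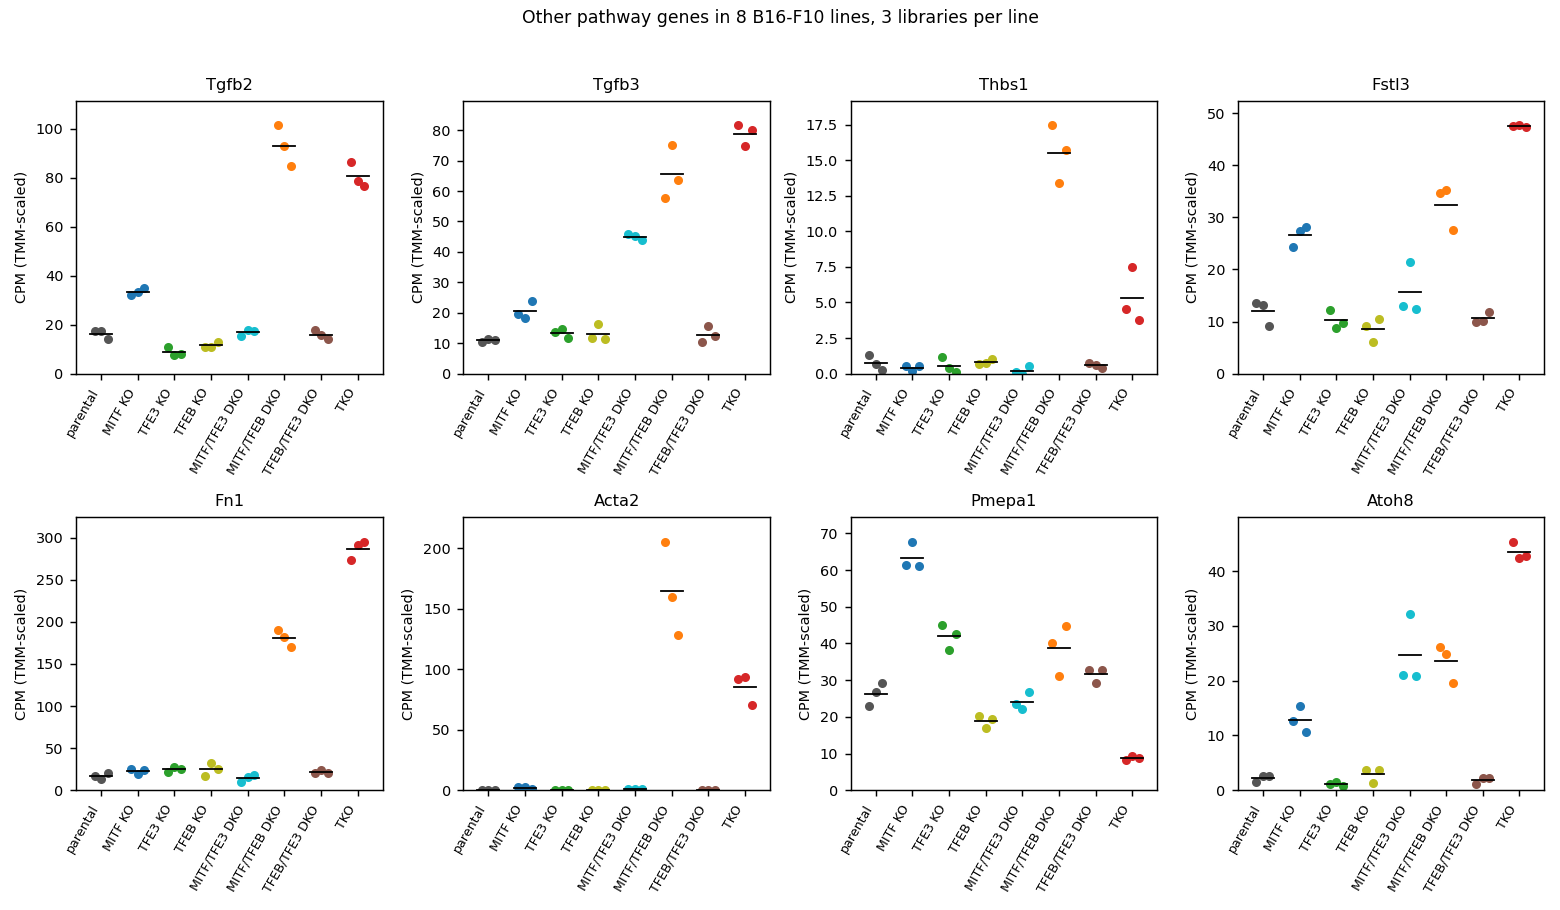
Level (y axis, CPM scaled by the authors, starting at 0) of 8 pathway genes that are not members in the 8 lines (x axis), with 1 point per library and a bar at the mean of 3. Fn1, Acta2 and Thbs1 stand apart in MITF/TFEB DKO and TKO cells, Tgfb3 and Atoh8 are raised in MITF/TFE3 DKO cells too, and Pmepa1 is highest in MITF KO cells and lowest in TKO cells.

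The genes whose 8 line means were most like each member's were picked by Pearson's r of log2(CPM + 1), among genes with a mean of at least 5 CPM, as a description. For Id2 they were Tpd52l1, Fam111a and Gm38882 (r = 0.99 each), for Id3 Riox2, Gm42151 and Traf3ip2 (r = 0.97 each), for Tgfb1 P2rx5 (r = 0.99), Mllt11 (r = 0.98) and Cdkn1a (r = 0.98), and for Skil Lamp2 (r = 0.97), Mylip and Mettl7a1 (r = 0.96 each). Snapc3 (r = 0.99) was nearest to Tgfbr1, G6pdx (r = 0.98) to Smad3, Zfp398 (r = 0.94) to Tgfbr2, Haus4 (r = 0.93) to Id1 and Pak3 (r = 0.92) to Smad7. The means share the same 24 libraries, and a line that stands apart can set most of r.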

How the data were processed

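Total RNA was sequenced from the 3′ end (QuantSeq Forward) in 24 libraries, 3 of each of 8 lines. Per the labels and the study's methods, the authors checked reads with FastQC 0.11.9, trimmed them with Trim Galore 0.6.5 and cutadapt 2.10, mapped them to mm39 with STAR 2.7.8a and normalised gene counts with edgeR (version not given in the sources used here), and the counting tool, annotation and strand setting are likewise not given. The deposited values are a signal made by the authors, counts per library size (CPM) divided by the TMM factor of each library, where CPM alone had been assumed when the tests were set, and the test was kept. Steps between values gave whole reads for 99.9% of values (within 0.01 of a whole number), with 18300902 to 26667877 reads on genes per library and implied TMM factors of 0.925 to 1.07. Reads from the 3′ end do not scale with transcript length, and scarce genes (Tgfb1, Id1, Smad7) are limited by counting error.

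Log2(CPM + 1) was fitted with limma 3.58.1 (trend, R 4.3.3) over all 12010 genes and 24 libraries, with 18 comparisons between lines and 3 differences of effects. A call took an unadjusted p under 0.05 together with a fold of at least 2, as in the study's methods, and a difference of effects took an adjusted p under 0.05 and a size of at least 1 on the log2 scale. P-values were adjusted by Benjamini-Hochberg over all genes. Alternatives were edgeR 4.0.16 (quasi-likelihood) on the recovered reads, pseudocounts of 0.25 and 5, a mean CPM of at least 5, median-of-ratios size factors, fits on the compared lines alone, adjusted calls, a replicate block and each library left out. Both fits were tested on simulated data with the same spread for every gene and with changes set only in well-read genes. That test does not cover genes as scarce as Tgfb1 and Id1, nor a spread that differs between genes.

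Members and lists were chosen with earlier results of these data known. Named were the 9 members, up to 4 non-members per pathway list with the largest change among those called with an adjusted p under 0.05, and the 3 genes most like each member over the 8 line means. A gene that this rule names is not reported here. The marker lists are given by their summed CPM. Positions are from GENCODE vM39 (mm39) and promoters from RefSeq (GRCm38.p6). Nearest genes are the 100 with a mean CPM of at least 5 around each gene on its chromosome.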

Additional observations from a re-analysis of the deposited data

Results flagged for a closer look

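The effect of losing 1 factor differed with the presence of another, by a test of the difference itself, for 4 members. For TFEB loss, the effect without MITF minus that with MITF was 1.15 for Tgfb1, 1.29 for Skil, -2.48 for Id2 and 3.02 for Id3 on the log2(CPM + 1) scale. For TFE3 loss, the same difference was 3.63 for Id3. In cells without MITF, the effect of TFEB loss without TFE3 minus that with TFE3 was -3.66 for Id3. The lines are single clones, and a difference between clones and an effect of the lost factor cannot be told apart. No highest or lowest library was tested for standing apart from its line, since each line has 3.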

How the results depend on the processing

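Of 3025 alternative values for 209 results, 0 changed direction where the call was passed in the main fit or in the alternative. Values that passed in neither were not counted here, and some of them did change sign. With a library left out, Skil in MITF KO cells against parental cells ran from -0.07 to 0.08, and Tgfbr2 in MITF/TFEB DKO cells from -0.06 to 0.35. Among settings that keep every library, 1560 values stayed on their side of the threshold or within 1.5 times the count, 7 lost and 19 gained a call and 23 counts moved further. With a library left out these were 1377, 5, 15 and 19. Size factors by median of ratios and fits on the compared lines alone moved no count below.

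edgeR on reads called 2 members in place of 0 in MITF KO cells (Id1, Id3), 1 in place of 0 in TFEB KO cells, 1 in place of 0 in TFEB/TFE3 DKO cells (Tgfb1 in both), 4 in place of 2 in MITF/TFEB DKO cells (also Tgfb1 and Id1), 1 in place of 0 between the TKO and the MITF/TFEB DKO (Id1) and 2 in place of 1 between the MITF/TFEB and MITF/TFE3 DKOs (also Skil), while it called between 2.57% and 20.3% of all genes against parental cells. It called 6 pathway genes in place of 2 in TFE3 KO cells, 1 in place of 0 in TFEB KO cells, 2 in place of 0 in TFEB/TFE3 DKO cells and 10 in place of 6 in MITF/TFE3 DKO cells. A pseudocount of 0.25 gave 2 members in MITF KO cells, 1 in TFEB KO cells and 1 in TFEB/TFE3 DKO cells, and 4, 2, 2 and 10 pathway genes in the TFE3 KO, TFEB KO, TFEB/TFE3 DKO and MITF/TFE3 DKO. A pseudocount of 5 gave 0 members in the TFE3 KO, and 3, 0 and 3 pathway genes in the MITF KO (9 otherwise), TFE3 KO and MITF/TFE3 DKO. It took the difference of effects of TFEB loss to 0.34 for Tgfb1 and 0.94 for Skil, the gap of Skil between MITF/TFEB DKO and TFEB KO cells to 0.93 and the 4 called differences of Tgfb1 to between -0.29 and 0.53. A mean CPM of at least 5, which leaves Tgfb1 out, gave 0 members and 1 pathway gene in the TFE3 KO.

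With a library left out, the members called ranged from 0 to 1 in the MITF KO, TFE3 KO and TFEB KO and from 1 to 2 between the MITF/TFEB and MITF/TFE3 DKOs, and pathway genes from 0 to 5 in the TFE3 KO and 0 to 2 in the TFEB KO. The added calls were Id3 (-1.20, -1.11 and -1.05 without parental replicate 1 and MITF KO replicates 1 and 3) and Id1 (-1.03 without parental replicate 2) in MITF KO cells, Id1 (-1.06 without parental replicate 2) in MITF/TFEB DKO cells (3 members in place of 2), and Tgfb1 (down to -1.03, without parental replicates 2 or 3 or TFEB KO replicate 3) in TFEB KO cells. Skil between MITF/TFEB DKO and MITF KO cells was 1.01 without MITF/TFEB DKO replicate 2. The difference of effects of TFEB loss on Tgfb1 was 0.95 without MITF KO replicate 1, and the gap of Tgfb1 between the TKO and the TFEB/TFE3 DKO was 0.94, 0.91 and 0.96 without TFEB/TFE3 DKO replicates 2 and 3 and TKO replicate 3, under the fold of 2. Libraries with the same replicate number had a mean correlation of deviations of 0.022 (lowest -0.66), beside -0.013 for other numbers. Of the 24, 11 correlated best with their own number, and a batch shared by some libraries was not tested. With the number as a replicate block 2 members and 21 pathway genes were called in MITF/TFEB DKO cells, 2 and 21 in TKO cells, and no call of a member changed.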

Other observations

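Within lines, Id3 and Tgfbr2 varied together. After the mean of each line was taken off log2(CPM + 1), their deviations over the 24 libraries (which share 8 line means) had a Pearson's r of 0.84 and a Spearman's rho of 0.89, and r was 0.84 without the 2 libraries farthest from the median of Tgfbr2. Tgfbr2 also went with Ccn2 (r = 0.87) and Bambi (r = 0.84), and Id3 with Bambi (r = 0.81) and Ccn2 (r = 0.74). Ccn2 and Bambi are both induced by TGF-β family signals in many cells, as are the members Smad7 and Skil. Smad7 had an r of 0.01 with Tgfbr2 and -0.08 with Id3, and Skil had -0.02 and -0.23. Smad3 ran against Tgfbr2 (r = -0.72). Whether TGF-β signals had a part in these relations was not tested. The same deviations had an r of 0.70 with the implied TMM factor for Tgfbr2, 0.59 for Id3 and -0.65 for Id2, and -0.13 for Tgfbr2 and -0.34 for Id3 with the log2 reads on genes. Of 9538 other genes, 504 had an r of at least 0.8 with Id3 and 528 with Tgfbr2, against 105 with Id2 and 1 with Skil. These relations are a description of pairs looked at after the values were seen, among 36 pairs of members, with no test.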
